A study of Mus musculus with 22 samples.

Results

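The gene segments from which the T cell receptor chains are assembled were followed here across RNA-seq libraries of memory CD4+ T helper 2 (Th2) cells of the mouse. The members were chosen by name alone, as the entries for V, D, J and C segments of the alpha, beta, gamma and delta loci. This gave 270 of the 55291 gene names in the deposited tables. The alpha locus contributed 130 Trav, 60 Traj and 1 Trac entries, and the beta locus 35 Trbv, 2 Trbd, 14 Trbj and 2 Trbc entries. The gamma locus contributed 7 Trgv, 4 Trgj and 4 Trgc entries, and the delta locus 6 Trdv, 2 Trdd, 2 Trdj and 1 Trdc entries. Of all 270, 194 were above 0 in at least 1 of the 7 libraries analysed, 76 were listed at 0 in all 7, and 17 were above 0 in all 7.

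Effector Th2 cells of receptor-transgenic donors had been moved into recipient mice, where they formed tissue-resident memory (TRM) and circulating memory (Tcirc) populations. The RNA libraries fell into 4 groups by where the cells were found and by the population they came from, written ex-Tcirc or ex-TRM. The groups are TissueExTcirc, CirculatingExTcirc, TissueExTRM and CirculatingExTRM, with 2 libraries each. All came from female mice of 6 to 10 weeks, carry the strain label Balb/c and were sorted as CD4+ T cells. The series used OT-II creERT2 donors with OVA-sensitized C57BL/6 (Ly5.2) hosts, and DO11.10 donors with BALB/c-nu/nu hosts, with end points at day 49 under tamoxifen in the first experiment and day 71 after a further OVA challenge in the second. For the RNA libraries the labels name neither the donor line nor the animals behind each of a group's 2 libraries, so p-values measure the spread between libraries, which may be technical. They give lung as the source of every library, the circulating groups included, whereas the design text takes CirculatingExTRM cells of the first experiment from blood. Nude hosts lack a thymus and so make few T cells of their own, which limits them as a model of a normal repertoire. CirculatingExTRM replicate 1 was nearly empty and was treated as missing, which left 4 tissue and 3 circulating libraries, and 1 library in the CirculatingExTRM group.

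A T cell receptor chain is made by joining 1 V segment, in beta and delta chains also a D segment, and 1 J segment on the chromosome; the joined exon is then spliced to a constant region. A normal CD4+ population holds very many such joins, whereas T cells of a receptor-transgenic donor mostly carry the introduced pair. The DO11.10 receptor recognises an ovalbumin peptide with a Vα13.1 alpha chain and a Vβ8.2 beta chain, and the OT-II receptor recognises it with Vα2 and Vβ5. In RefSeq, Vα13.1 is a synonym of Trav5-4, Vβ8.2 of Trbv13-2, and Vβ5.1 and Vβ5.2 of Trbv12-2 and Trbv12-1; Vα2 segments form the Trav14 family.

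Values are FPKM, fragments scaled to feature length and library size, as the authors deposited them, so levels of different segments are compared per length. J segments are short, at 29 to 72 bases for Traj and 46 to 53 for Trbj, against a median of 502 for Trav and 3678 for Trac. These lengths are spans on the genome, from start to end, and need not be those used in the scaling. The deposited files give no counts, but the spacing of low values placed depth at 23.98% and 57.43% of TissueExTRM replicate 1 in TissueExTcirc, at 90.13% in TissueExTRM replicate 2, at 8.60% and 4.01% in CirculatingExTcirc, and at 25.35% in CirculatingExTRM. The CirculatingExTcirc libraries were thus the shallowest, but their 2 values are rough. The commonest spacing was shared by 11 of 1719 low genes in replicate 1 and 19 of 1106 in replicate 2, itself placed through replicate 1. Segments made up 0.574% to 1.14% of all FPKM in a library. Every T helper marker was above 0 in the 4 tissue libraries and CirculatingExTRM, with 4 and 3 of 5 above 0 in CirculatingExTcirc, where Cd3d was listed at 0; summed T helper marker levels were 394 to 607 FPKM in tissue and 549 to 708 in the circulating libraries. Of 6 B cell markers, Cd79a and Cd79b were listed at 0 in all 7 libraries, but Igkc and Ighm, the immunoglobulin chain genes, were at 281 and 111 FPKM in TissueExTcirc replicate 1 and 161 and 88.3 in CirculatingExTcirc replicate 1. The B cell list summed to 392 and 255 FPKM in these libraries and to at most 62.4 in the other 5. The 4 alveolar epithelium markers summed to 588 FPKM in CirculatingExTcirc replicate 1, of which Sftpc, a surfactant protein gene, gave 421, to 80.9 in TissueExTcirc replicate 1 and to at most 28.9 in the other 5. Myeloid markers summed to 41.4 to 153 FPKM in tissue, 685 and 300 in CirculatingExTcirc and 63.4 in CirculatingExTRM. The part of these other cell types in the results below was not tested.

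Beta chain V usage was dominated by Trbv13-2, the Vβ8.2 segment (chromosome 6, 41121396 to 41121832, mm10). It was at 1583 and 1708 FPKM in TissueExTcirc, 1771 and 1653 in TissueExTRM, 1314 and 2747 in CirculatingExTcirc and 1892 in CirculatingExTRM. Both the lowest and the highest value were in CirculatingExTcirc, so the groups overlapped. Tissue and circulating libraries did not differ beyond the spread (log2 difference -0.18, SE 0.32, limma adjusted p = 0.789). In such bulk libraries, fewer cells with a given receptor and less of its RNA per cell cannot be told apart. Trbv13-2 held 83.9% to 84.9% of the FPKM of all 35 Trbv segments in the tissue libraries, 90.2% and 99.0% in CirculatingExTcirc and 87.7% in CirculatingExTRM. Its family members were close to nothing: Trbv13-1 was listed at 0 in all 7 libraries, and Trbv13-3 reached 12.6 FPKM in TissueExTcirc replicate 2 and 4.96 in TissueExTRM replicate 1 and was listed at 0 in the rest.

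The next beta segment was Trbv12-2, a Vβ5 segment that ends 2031 bases upstream of Trbv13-2. It was at 247 and 287 FPKM in TissueExTcirc, 298 and 255 in TissueExTRM, 86.2 and 0 in CirculatingExTcirc and 221 in CirculatingExTRM. All tissue libraries were above all circulating ones, but the spread within CirculatingExTcirc was wide and the difference did not pass the test (limma adjusted p = 0.564). The other Vβ5 segments were nearly absent: Trbv12-1 was above 0 only in TissueExTRM replicate 2, at 1.68 FPKM, and Trbv12-3 was listed at 0 in all 7. Trbv31, the V segment that lies in inverted orientation beyond Trbc2, was the third, at 21.9 and 18.5 FPKM in TissueExTcirc, 26.2 and 22.5 in TissueExTRM, 0 and 26.4 in CirculatingExTcirc and 34.4 in CirculatingExTRM. The other 32 Trbv segments together gave 28.2 and 20.8 FPKM in TissueExTcirc, at most 16.1 in TissueExTRM, 56.0 and 0 in CirculatingExTcirc and 11.0 in CirculatingExTRM. The 56.0 FPKM was a single segment, Trbv19, which reached at most 1.59 elsewhere. Trbv18, the fifth by mean level, is a pseudogene and reached 13.0 FPKM in TissueExTcirc replicate 1.

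The Trbv13 family's share of Trbv FPKM was 84.5% ± 0.345 (SD, n = 4) in tissue and 92.3% ± 5.97 (SD, n = 3) in the circulating libraries, with no overlap (exact two-sided permutation p = 0.0286; 0.0714 after Benjamini-Hochberg adjustment over 5 single values). The Trbv12 family's share was 13.6% ± 0.562 (SD, n = 4) against 5.39% ± 5.14 (SD, n = 3), with the same exact permutation p = 0.0286 and adjusted value of 0.0714. These shares sum to nearly all of Trbv FPKM, so they are nearly 1 measurement. With 4 against 3 libraries, 0.0286 is the smallest p this test can give, and neither share passed after adjustment.

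**Figure D1:**
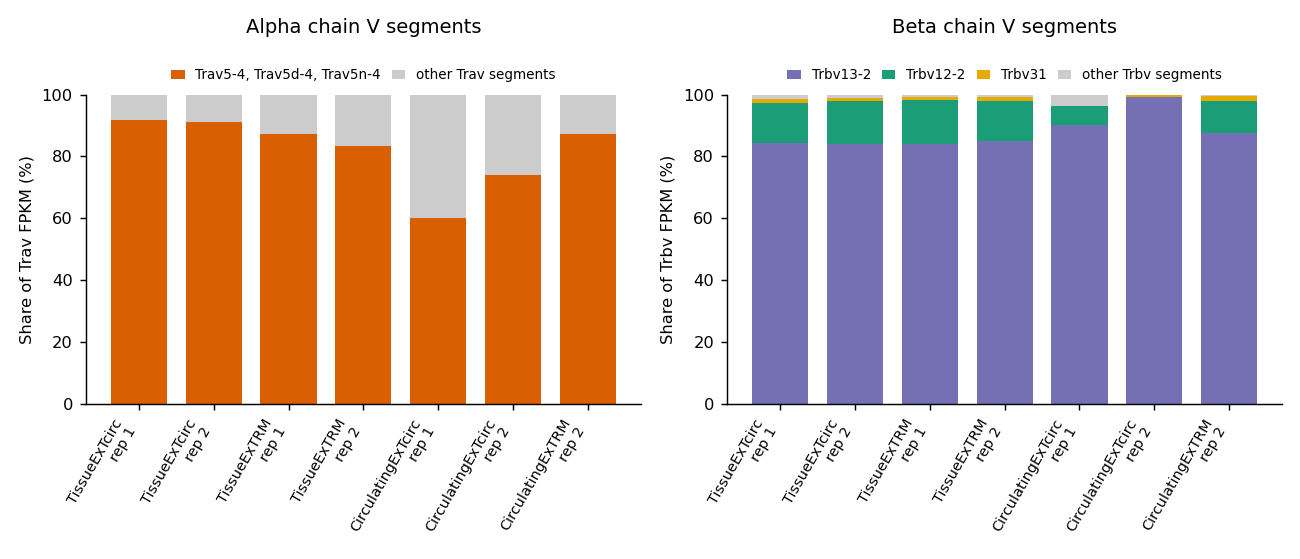
Share of the FPKM of all Trav (left) and all Trbv (right) segments, in percent, taken by the leading segments in each of the 7 libraries; stacked bars sum to 100. Trbv13-2 takes 83.9% to 99.0% of Trbv FPKM, and the Trav5-4 group takes 83.5% to 91.6% of Trav FPKM in tissue against 60.2% and 74.0% in CirculatingExTcirc.

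Alpha chain V usage was led by Trav5-4, the Vα13.1 segment, and its near-identical copies Trav5d-4 and Trav5n-4, which lie in duplicated stretches of the same locus (chromosome 14, mm10: Trav5-4 at 53704007 to 53704514, Trav5d-4 at 53001713 to 53002231, Trav5n-4 at 53312904 to 53313422). Trav5-4 was at 166 and 160 FPKM in TissueExTcirc, 183 and 164 in TissueExTRM, 88.4 and 173 in CirculatingExTcirc and 109 in CirculatingExTRM. Its values overlapped between tissue and circulation, and the difference did not pass (log2 difference 0.53, SE 0.31, limma adjusted p = 0.483). Trav5d-4 was at 271 and 333 FPKM in TissueExTcirc, 361 and 317 in TissueExTRM, and 239 in CirculatingExTRM, and was listed at 0 in both CirculatingExTcirc libraries. Trav5n-4 was at no less than Trav5d-4 and at most 1.02 times it wherever either was above 0, while Trav5d-4 was at least 1.63 times Trav5-4 in those 5 libraries. Reads that match several copies could have been split between them, so the 3 levels are uncertain as separate values. Summed over the 3 copies, they held 91.6% and 91.0% of Trav FPKM in TissueExTcirc, 87.2% and 83.5% in TissueExTRM, 60.2% and 74.0% in CirculatingExTcirc and 87.4% in CirculatingExTRM.

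The remaining 127 Trav segments were low and scattered. Between 25 and 59 of them were above 0 in the tissue libraries, 8 and 1 in CirculatingExTcirc and 26 in CirculatingExTRM. Together they gave 65.1 and 81.9 FPKM in TissueExTcirc, 133 and 158 in TissueExTRM, 58.4 and 60.7 in CirculatingExTcirc and 84.8 in CirculatingExTRM. In CirculatingExTcirc replicate 2 that sum was a single segment, Trav6n-6, at 60.7 FPKM, which was at 5.62 to 17.5 in tissue. Trav9-4, the fifth by mean level, was at 7.39 to 11.6 FPKM across the tissue libraries and listed at 0 in the 3 circulating libraries.

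The Trav14 family, which holds Vα2, was a minor part. Its summed level was 6.57 and 12.8 FPKM in TissueExTcirc, 17.7 and 33.8 in TissueExTRM, 12.2 and 0 in CirculatingExTcirc and 38.4 in CirculatingExTRM, where its highest member, Trav14d-3-dv8, reached 13.2. Its share of Trav FPKM was 1.87% ± 1.16 (SD, n = 4) in tissue and 4.68% ± 4.26 (SD, n = 3) in circulation (exact permutation p = 0.286, adjusted 0.286). The Trav5 family's share was 88.5% ± 3.87 (SD, n = 4) against 73.9% ± 13.6 (SD, n = 3), which did not pass either (exact permutation p = 0.0857, adjusted 0.107). Without CirculatingExTcirc replicate 1, the Trav5 difference shrank from 14.6 to 7.79 percentage points and the Trav14 difference from -2.81 to -0.98; without replicate 2 the latter was -5.15. Trav11, Trav11d and Trav11n, the V segments of the invariant natural killer T cell receptor, and Trav1, that of mucosal-associated invariant T cells, were listed at 0 in all 7 libraries.

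Among the alpha J segments, Traj21 (chromosome 14, 54198790 to 54198846, mm10) had the highest level of all 60 in each of the 7 libraries. It was at 877 and 942 FPKM in TissueExTcirc, 1034 and 937 in TissueExTRM, 513 and 468 in CirculatingExTcirc and 808 in CirculatingExTRM. All tissue values were above all circulating ones, yet the difference did not pass (log2 difference 0.59, SE 0.15, limma adjusted p = 0.137). Traj21 took 24.4% to 34.9% of Traj FPKM and stood 1.23 to 3.50 times above the next Traj segment, which was Traj6 in every library except CirculatingExTcirc replicate 1, where it was Traj17. Traj6 was at 251 and 305 FPKM in TissueExTcirc, 488 and 431 in TissueExTRM, 247 and 380 in CirculatingExTcirc and 380 in CirculatingExTRM, and did not differ between tissue and circulation (log2 difference 0.06, SE 0.24, limma adjusted p = 0.892). Traj12 was the third by mean level, at 216 to 368 FPKM across the tissue libraries and 78.9 to 190 in circulation.

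Position along the locus went with level. Traj segments are numbered from the constant region outward, and Traj21 lies 21674 bases before Trac. The 19 segments between Traj21 and Trac (Traj1 to Traj20) had a median of 44.7 and 56.2 FPKM in TissueExTcirc, 50.8 and 49.5 in TissueExTRM and 41.4 in CirculatingExTRM. The 40 segments on the far side (Traj22 to Traj61) had a median of 5.08 and 11.3, 18.0 and 16.5, and 8.12 FPKM in the same libraries. The near side was thus 2.81 to 8.79 times the far side in the tissue libraries. At 50 FPKM or more, 9 or 10 of the 19 near segments but at most 1 of the 40 far ones were found in each of these 5 libraries. The levels differed directly beside Traj21 as well: Traj20, the next segment after Traj21 on the near side, held 59.6 to 145 FPKM in tissue. Traj22, 1482 bases before Traj21, was at 22.6 to 30.4.

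The 9 segments that followed Traj21 in median tissue level, Traj6, Traj12, Traj2, Traj18, Traj20, Traj4, Traj19, Traj9 and Traj17, all lay on the Trac side, and Traj39, at a median of 63.6 FPKM, was the highest on the far side. Traj18, the J segment of the invariant natural killer T cell receptor, was among these near segments, while Trav11 was at 0. Traj33, used by mucosal-associated invariant T cells, was on the far side at 6.84 to 27.9 FPKM in tissue, 0 in both CirculatingExTcirc libraries and 26.6 in CirculatingExTRM. The shallow CirculatingExTcirc libraries showed the split less clearly, with near medians of 7.53 and 0 FPKM and far medians of 0 and 0. There, 11 and 5 of the 19 near segments were above 0, and 5 and 4 of the 40 far ones. Segments of 1 locus share a transcript and are not independent, so no test of this split is given.

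**Figure D2:**
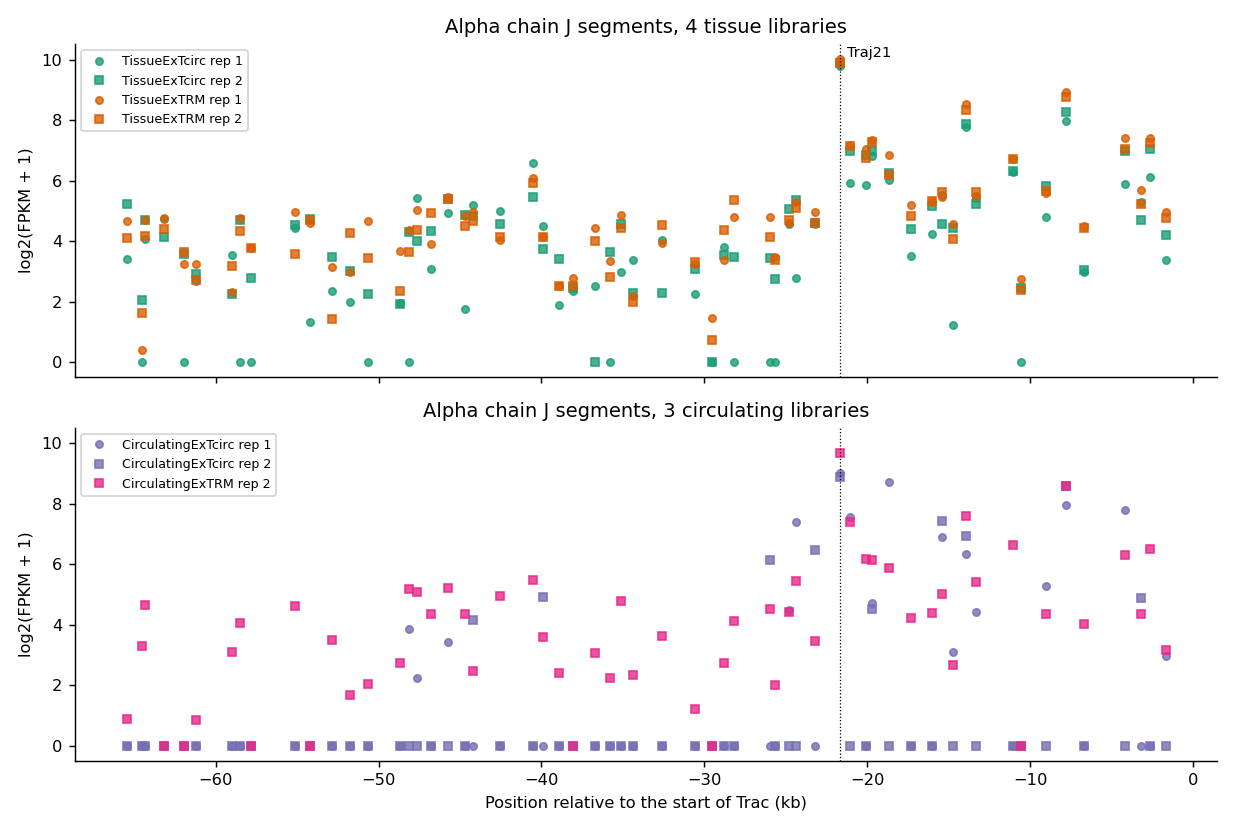
Level of each of the 60 Traj segments, as log2(FPKM + 1), against its position relative to the start of Trac in kilobases, for the 4 tissue libraries (top) and 3 circulating libraries (bottom); the dotted line marks Traj21. In tissue, Traj21 tops every library and the medians of the segments to its right exceed those of the segments to its left, at 44.7 to 56.2 against 5.08 to 18.0 FPKM.

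The beta J segments followed their cluster. The 7 Trbj1 segments precede Trbc1 and the 7 Trbj2 segments lie between Trbc1 and Trbc2. Trbj1 had a median of 176 and 307 FPKM in TissueExTcirc, 365 and 344 in TissueExTRM, 106 and 101 in CirculatingExTcirc and 249 in CirculatingExTRM. Trbj2 had a median of 46.2 and 39.7, 41.7 and 35.6, 0 and 0, and 21.1 FPKM in the same order. The Trbj1 cluster took 82.5% to 89.2% of Trbj FPKM in tissue, 91.9% and 100% in CirculatingExTcirc and 87.7% in CirculatingExTRM. All 14 were above 0 in every tissue library.

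Trbj1-1 (chromosome 6, 41533864 to 41533911, mm10) was the highest Trbj segment in 5 of 7 libraries, and Trbj1-3 in TissueExTcirc replicate 1 and TissueExTRM replicate 1. Trbj1-1 was at 335 and 574 FPKM in TissueExTcirc, 510 and 532 in TissueExTRM, 418 and 1234 in CirculatingExTcirc and 506 in CirculatingExTRM, with overlapping groups (log2 difference -0.33, SE 0.49, limma adjusted p = 0.772). Trbj1-7 ranged over 157 to 497 FPKM in tissue and was at 106 and 778 in CirculatingExTcirc and 251 in CirculatingExTRM. CirculatingExTcirc replicate 2 thus held the highest value of both, although it listed Trbj1-4 at 0, which was at 176 to 365 FPKM in tissue. Trbj1-6 was at 245 to 322 FPKM across the tissue libraries and 90.0 to 249 in circulation. The D segment Trbd1 ranged over 12.3 to 17.2 FPKM in tissue and was at 100 and 0 in CirculatingExTcirc and 29.0 in CirculatingExTRM, and Trbd2 was above 0 only in TissueExTRM replicate 1, at 0.812.

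**Figure D3:**
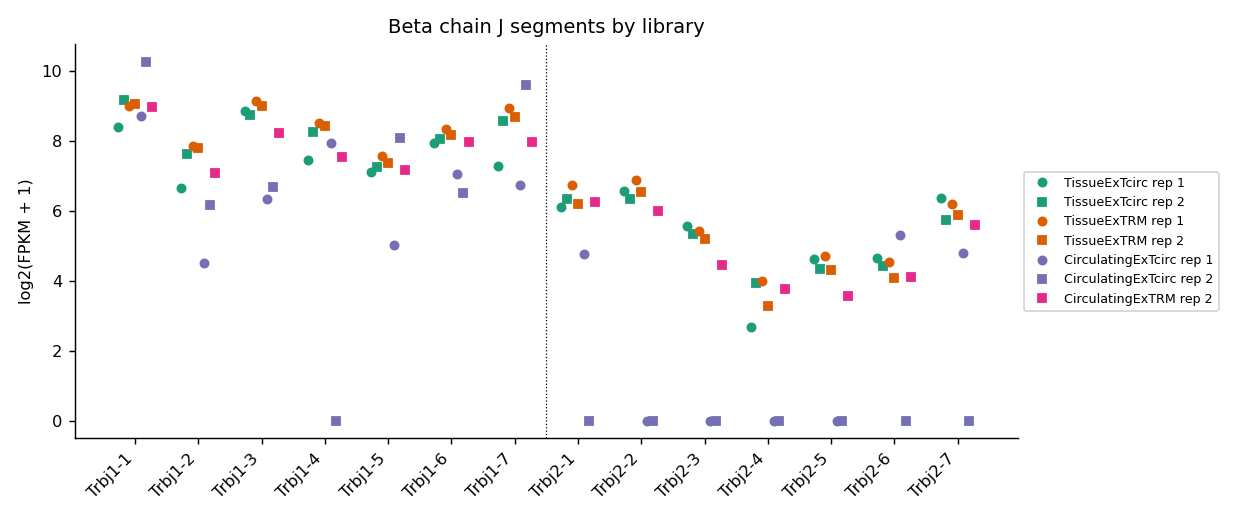
Level of each of the 14 Trbj segments, as log2(FPKM + 1), in each of the 7 libraries; the dotted line separates the Trbj1 and Trbj2 clusters. In tissue the Trbj1 medians of 176 to 365 FPKM stand above the Trbj2 medians of 35.6 to 46.2, and all 7 Trbj2 segments are at 0 in CirculatingExTcirc replicate 2.

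The constant regions of the alpha and beta loci, which every joined chain of a locus uses, did not differ between tissue and circulation beyond the spread. Trac was at 504 and 633 FPKM in TissueExTcirc, 753 and 653 in TissueExTRM, 511 and 493 in CirculatingExTcirc and 537 in CirculatingExTRM (log2 difference between tissue and circulation 0.28, SE 0.18, limma adjusted p = 0.533). Trbc1 was at 2370 and 2754 FPKM in TissueExTcirc, 2788 and 2714 in TissueExTRM, 2371 and 2910 in CirculatingExTcirc and 3089 in CirculatingExTRM (log2 difference -0.10, SE 0.18, limma adjusted p = 0.782). Trbc2 was at 298 and 310, 349 and 325, 296 and 298, and 340 FPKM in the same order (log2 difference 0.01, SE 0.15, limma adjusted p = 0.975). For all 3 the tissue and circulating values overlapped. Trbc1 was 7.94 to 9.77 times Trbc2; their coding parts are near-identical and reads could have been split between them, so this ratio is uncertain.

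Gamma and delta segments belong to the other T cell lineage. Of 26 such segments, 6 to 13 were above 0 in a tissue library, 1 and 3 in CirculatingExTcirc and 5 in CirculatingExTRM. Summed gamma levels were 0.988 to 4.47 FPKM in tissue, 0 and 5.91 in CirculatingExTcirc and 7.01 in CirculatingExTRM. Gamma segments were thus low throughout. The 5.91 FPKM was Trgv5 alone, and 6.26 of the 7.01 was Trgj4. Trgv2 and Trgv6 reached at most 1.83 and 1.01 FPKM, Trgc1 and Trgc2 were above 0 only in TissueExTRM replicate 2, at 1.40 and 1.63, and Trgv4, Trgv7, Trgc3 and Trgc4 were listed at 0 in all 7.

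Delta levels were higher, with sums over 11 segments of 30.5 to 67.2 FPKM in tissue, 4.92 and 27.2 in CirculatingExTcirc and 10.3 in CirculatingExTRM. The delta constant region Trdc was above 0 in all 7 libraries, at 5.72 and 12.5 FPKM in TissueExTcirc, 6.54 and 8.05 in TissueExTRM, 4.92 and 22.3 in CirculatingExTcirc and 5.75 in CirculatingExTRM. The delta locus lies inside the alpha locus, between the Trav segments and Traj. Trdv4, the highest Trdv segment by mean, reached 11.5 FPKM in TissueExTcirc replicate 2, and Trdd2 reached 28.4 in replicate 1 of that group, while Trdd1 was at 0 in all 7. Of the J segments, Trdj2 reached 26.4 FPKM in TissueExTcirc replicate 1 and at most 5.64 elsewhere, and Trdj1 reached 15.7 in TissueExTRM replicate 2. The next Trdv segments, Trdv2-2, Trdv1, Trdv2-1 and Trdv3, reached at most 4.57, 6.06, 3.93 and 1.91 FPKM. Of 4 markers of gamma delta T cells, Sox13 and Zbtb16 reached at most 0.304 and 0.954 FPKM and Blk was at 0, while Maf, which Th2 cells also express, was at 22.4 to 41.3 in the 7 libraries.

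Zeros followed the libraries. Segments above 0 numbered 108 and 139 of 270 in TissueExTcirc, 163 and 170 in TissueExTRM, 44 and 26 in CirculatingExTcirc and 113 in CirculatingExTRM. This is 40.0% to 63.0% in tissue, 16.3% and 9.63% in CirculatingExTcirc and 41.9% in CirculatingExTRM. Over all gene names the share above 0 had the same order of groups, at 55.1% to 68.5%, 23.1% and 12.7%, and 53.7%. The mean was 145 ± 28.0 segments (SD, n = 4) in tissue and 61.0 ± 45.9 (SD, n = 3) in circulation, which did not pass (exact two-sided permutation p = 0.0857, adjusted 0.107). CirculatingExTRM, at about the depth of TissueExTcirc replicate 1, had 113 segments against 108 there. In all, 77 segments (28.5%) were above 0 in at least 1 tissue library and at 0 in the 3 circulating libraries, against 22.9% of all gene names, and 2 (0.741%) the reverse, against 0.944%.

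By kind, 86 of 148 functional V entries were above 0 in some library but 25 reached 5 FPKM, whereas 67 of 70 functional J entries were above 0 and 66 reached 5. All 10 J pseudogenes reached 5 FPKM as well; the highest was Traj14, at 172 in CirculatingExTcirc replicate 2. Of 30 V pseudogenes, 22 were above 0 and 2 reached 5 FPKM.

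**Figure D4:**
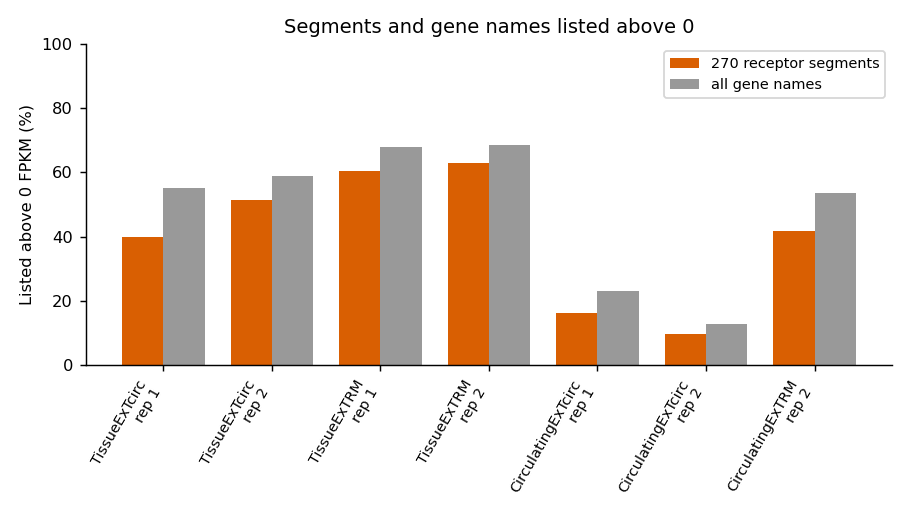
Percent of the 270 receptor segments and of all 55291 gene names with a deposited value above 0, per library. Bars start at 0; both measures are lowest in the 2 CirculatingExTcirc libraries, at 16.3% and 9.63% of segments.

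The comparison of tissue with circulation asks how cells found in tissue differ from those in circulation, averaged over both origins. It was tested with limma on log2(FPKM + 1) over the 2656 genes with a mean of at least 20 FPKM, of which 43 were segments: 22 Traj, 11 Trbj, 3 Trav, 3 Trbv, 2 Trbc, Trac and Trbd1. At an adjusted p under 0.05, 7.34% of all genes tested passed (6.55% higher in tissue and 0.791% lower). Of the 43 segments, 11 passed (25.6%), all higher in tissue: Traj2, Traj9, Traj15, Traj18, Traj19, Traj39, Trbj1-3, Trbj2-2, Trbj2-3, Trav5d-4 and Trav5n-4. The median log2 difference was 1.41 over the 43 and 0.43 over all genes tested, and 37 of the 43 were positive. Within ex-Tcirc, tissue against circulating, 9.11% of all genes passed (8.36% higher and 0.753% lower) and the same 11 segments did so. This comparison shares 4 libraries with the first and is not separate evidence.

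Most of the called segments were listed at 0 in CirculatingExTcirc. Of the 43 segments, 9 were at 0 in both of those libraries, and all 9 were called. A group at 0 in both libraries shows no spread of its own, and 3 of the 9, Traj15, Traj39 and Trbj2-3, had a circulating mean under 20 FPKM and so entered the test only through tissue. Within ex-Tcirc, all 9 were at 0 on the circulating side, entered only through other libraries, and all 9 were called. The 25.6% is therefore a description in both comparisons and is not read as a result about the segments. Only Traj18 and Trbj1-3 were called with values above 0 throughout. For location, Traj18 was no longer called with median-of-ratios scaling, and neither was called with the replicate number as a block. Traj18 was at 113 and 126 FPKM in TissueExTcirc, 160 and 155 in TissueExTRM, 25.3 and 21.9 in CirculatingExTcirc and 68.6 in CirculatingExTRM. All tissue libraries were above all circulating ones. The log2 difference was 1.74 with an SE of 0.19 (limma adjusted p = 0.0262). Trbj1-3 was at 462 and 431 FPKM in TissueExTcirc, 565 and 518 in TissueExTRM, 80.7 and 101 in CirculatingExTcirc and 298 in CirculatingExTRM. It too did not overlap, with 1.57 on the log2 scale and an SE of 0.18 (limma adjusted p = 0.0262). CirculatingExTRM lay between the tissue libraries and CirculatingExTcirc for both.

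The 9 others had values in CirculatingExTRM and are given without a fold, since the CirculatingExTcirc group was listed at 0. Their adjusted p-values rest on those zeros and are given as description only. Traj2 was at 68.3 and 132 FPKM in TissueExTcirc, 170 and 152 in TissueExTRM and 89.1 in CirculatingExTRM (limma adjusted p = 0.0239). Traj9 was at 77.7 and 79.0, 105 and 105, and 97.6 FPKM (limma adjusted p = 0.0239). In both, CirculatingExTRM fell within the tissue range. Traj19 was at 57.3 to 132 FPKM across the tissue libraries and 71.2 in CirculatingExTRM, Traj15 at 17.8 to 39.0 and 20.1, and Traj39 at 43.1 to 93.9 and 43.1. Trbj2-2 was at 80.4 to 118 FPKM across the tissue libraries and 63.2 in CirculatingExTRM, and Trbj2-3 at 35.6 to 46.2 and 21.1. Trav5d-4 and Trav5n-4, described above, had the smallest adjusted p of the members (limma, 0.0193 each). With groups that did not overlap, 12 of the 43 were higher in tissue (27.9%) against 12.1% of all genes tested, and none was lower, against 11.8%. The 12 include Traj39, Trav5d-4, Trav5n-4, Trbj2-2 and Trbj2-3, which were at 0 in both CirculatingExTcirc libraries. Some of the 12, Traj39 and Trbj2-3 included, entered the test only through tissue. These shares are therefore a description as well, and are not read as a result about the segments.

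Depth moved with this comparison, since CirculatingExTcirc was the shallowest group; the part of depth in the calls was not tested. Leaving out any 1 of the 4 tissue libraries left 0 segments called in either comparison, while 28 and 26 were called in the first without CirculatingExTcirc replicate 1 or 2. These are 65.1% and 60.5% of the 43 segments, against 69.5% and 42.2% of all genes tested in those fits. Within ex-Tcirc the same runs called 33 and 29 segments (76.7% and 67.4%), against 73.5% and 42.9% of all genes. A fit restricted to genes above 0 in all 7 libraries called 0 in the first and Traj18 alone within ex-Tcirc.

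**Figure D5:**
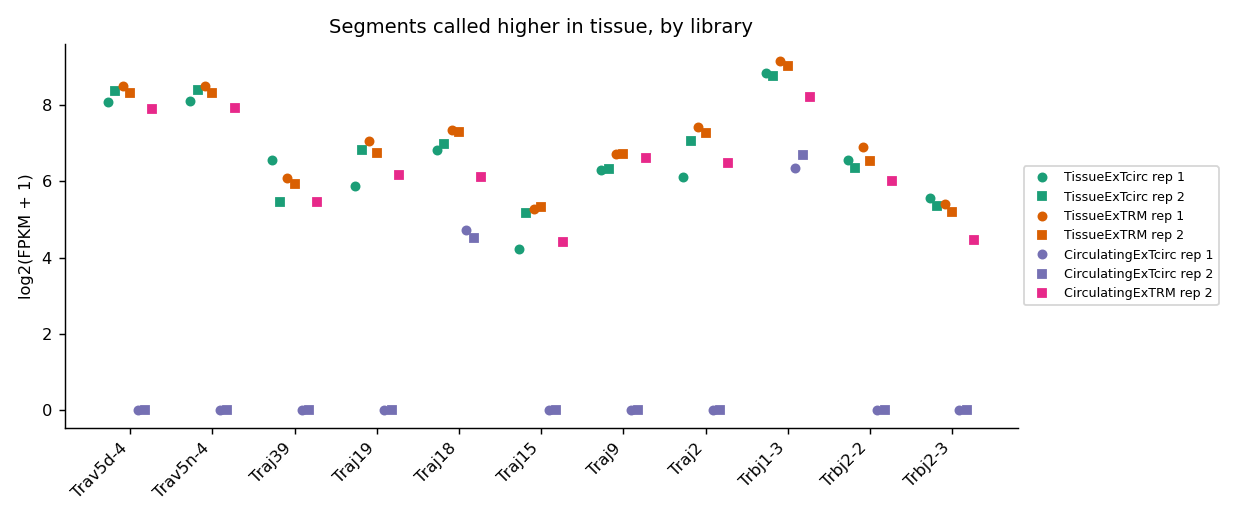
Level, as log2(FPKM + 1), in each of the 7 libraries of the 11 segments called higher in tissue. For 9 of the 11, both CirculatingExTcirc libraries are at 0 while CirculatingExTRM is above 0. It is within the tissue range for Traj2, Traj9, Traj15 and Traj19. It is below all tissue values for Traj39, Trav5d-4, Trav5n-4, Trbj2-2 and Trbj2-3. Traj18 and Trbj1-3 are above 0 in all 7.

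Between populations of origin within tissue, ex-TRM against ex-Tcirc, no segment passed and 0% of all genes tested passed. Only 7 genes, none of them a segment, had an unadjusted p under 0.05 with limma. The fit shares 1 estimate of spread over all 7 libraries, so SEs and p-values here also carry the spread within CirculatingExTcirc. With the 4 tissue libraries alone, 215 of 2818 genes and 5 of 51 segments had an unadjusted p under 0.05 with limma. None passed adjustment there (smallest limma adjusted p 0.0968 over all genes and 0.488 over segments). In the fit over 7 libraries, the median log2 difference was 0.27 over the 43 segments and 0.17 over all genes, and 38 of the 43 were positive. Both ex-TRM libraries were above both ex-Tcirc libraries for 20 of the 43 (46.5%), against 40.4% of all genes tested, a share near the background, and for none was the order the reverse, against 12.5%. Traj12 was among the larger differences, above the segment median of 0.27. It was at 216 and 231 FPKM in TissueExTcirc and 368 and 325 in TissueExTRM, which is 0.63 apart on the log2 scale, with an SE of 0.29 (limma adjusted p = 1). Trbv13-2, at 0.06 (SE 0.41), and Trac, at 0.31 (SE 0.22), did not pass either (limma adjusted p = 1 for each). TissueExTcirc replicate 1, at 23.98% of the depth of TissueExTRM replicate 1, was the shallowest of these 4.

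Of 15 other genes of the receptor and its assembly, 8 were tested (Cd3e, Cd3g and Cd247 of the CD3 complex, the co-receptor Cd4, the kinases Lck and Zap70, the adaptor Lat and the phosphatase Ptprc), and 0 were called in any of the 3 comparisons (smallest limma adjusted p 0.330, 0.218 and 1; 0, 1 and 0 genes at an unadjusted p under 0.05). Over all genes tested, 7.34%, 9.11% and 0% were called, so 0 of 8 is not read as a result about these genes. Lck, Zap70 and Cd247 were at 129, 74.6 and 79.5 FPKM in CirculatingExTcirc replicate 1 and listed at 0 in replicate 2, a wide spread. Cd3e was at 178 and 234 FPKM in TissueExTcirc, 229 and 243 in TissueExTRM, 209 and 306 in CirculatingExTcirc and 237 in CirculatingExTRM, with overlapping groups. The recombinase genes Rag1 and Rag2, Dntt, which adds bases at the joins, and Ptcra, the surrogate alpha chain of immature T cells, reached at most 1.22, 0.918, 1.10 and 2.32 FPKM. Cd8a and Cd8b1, which CD4+ cells lack, reached at most 1.32 and 1.91 FPKM.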

How the data were processed

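The authors deposited FPKM, with each gene name listed once in a library. Per the submitters' processing notes, the tools were Trim Galore 0.6.7, HISAT2 2.2.1, SAMtools 1.15 and StringTie 3.0.1 on mm10; no source used here gives the annotation or strand setting. All 270 members matched RefSeq's GRCm38.p6 table, which gave positions and synonyms. From 7 libraries, FPKM were summed per name, and log2(FPKM + 1) of genes with a mean of at least 20 FPKM was fitted with limma 3.58.1 (R 4.3.3; intensity trend, group means, Benjamini-Hochberg, threshold 0.05), and checked on simulated data. There, 66 genes per size changed by log2 2 were recovered at 27.3%, 16.7% and 10.6% for location, location within ex-Tcirc and origin, at 53.0%, 50.0% and 45.5% for log2 4, and at 0%, 1.5% and 0% for log2 1. The simulated noise of a gene had the same spread in all 7 libraries, so these rates do not check calls that rest on zeros in 1 group. Single values per library had exact permutation tests. Depth beyond relative spacing is unknown, so no counting intervals are given. The rule for named members took the 5 highest of Trav, Traj, Trbv, Trbj, Trgv and Trdv, all D and C segments, the donor receptor families (Trav5 and Trav14 partly as sums), invariant receptor segments and every called member. Other segments named in the text were chosen after their values were seen. Members and lists were chosen with earlier results of these data known. Same-numbered replicates did not deviate together and the fit has no block, though 2 libraries per group cannot exclude pairing. Alternatives changed the pseudocount, filter, scaling and libraries. The 14 ATAC-seq samples were not used here.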

Additional observations from a re-analysis of the deposited data

How the results depend on the processing

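Of 96 alternative values, 59 were labelled the same as in the report, 22 moved, 14 weaker and 1 stronger. For counts of called segments, the label compares only how many were called, not which ones. The fit of the report called 11 of 43 segments for location and 11 of 43 within ex-Tcirc. At 1 FPKM or more in at least 2 libraries, 34 and 37 of 142 segments were called, against 3618 and 5984 of 28325 genes. With no filter these were 35 and 32 of 194, against 4345 and 4981 of 43037. Genes above 0 in all 7 libraries gave 0 and 1 of 16, against 1 and 13 of 1558. Adding CirculatingExTRM replicate 1 gave 0 and 0 of 41, against 0 and 0 of 2501. For origin within tissue, no filter called 8 of 194 segments and 584 of 43037 genes, against 0 in the fit of the report. All 8 were listed at 0 in both TissueExTcirc libraries and so entered only through TissueExTRM. Leaving out 1 library gave 0 to 28 segments for location and 0 to 33 within ex-Tcirc; each tissue library left out gave 0 in both. The 28 and 33 came without CirculatingExTcirc replicate 1, when 1860 and 1969 genes were called (69.5% and 73.5% of those tested), and replicate 2 left out gave 26 and 29, with 1172 and 1190 genes (42.2% and 42.9%). These runs called all 11 segments again, but also called Trbv13-2 lower in tissue without replicate 1, and Traj17 and Trbd1 lower without replicate 2; within ex-Tcirc they also called Traj14 lower in both, and Traj22, Trbj1-1 and Trbj1-5 lower without replicate 1. Location could not be estimated without CirculatingExTRM replicate 2. Where a group was left with 1 library, that library was assumed to vary like the other groups. Median-of-ratios scaling moved the median log2 difference of all genes from 0.43 to 0.63 for location and from 0.87 to 0.99 within ex-Tcirc. It called 9 and 11 segments, and 69 against 195 genes for location, where Traj15 and Traj18 were lost. A pseudocount of 5 called 82 genes and 9 segments for location, and lost Traj15 and Traj39. No segment called in the fit of the report turned negative under any of these settings.

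With the replicate number as a block, 0 segments and 0 genes were called for location, 9 and 158 within ex-Tcirc, and 0 for origin. Deviations of same-numbered libraries correlated at -0.094, 0.007 and -0.04 over the 3 pairs of groups with 2 libraries each. No pairing by number was visible, but so few libraries cannot exclude it, and the labels do not name the animals. The Trbv13 share difference ran from -10.2 to -4.46 percentage points and the Trbv12 share difference from 5.55 to 10.7 with each library left out, at exact permutation p of 0.0667 to 0.1, the smallest such designs allow. With each library left out, the Trav5 share difference ran from 7.79 to 21.4 percentage points and the Trav14 share difference from -5.15 to -0.98. The difference in segments above 0 ran from 66.5 to 110. No such run could pass, since the smallest exact permutation p these designs allow is 0.0667 or 0.1. With all 7 libraries, counting segments of at least 20 FPKM gave a difference of 19.3 segments, the 1 alternative labelled stronger. Its exact permutation p of 0.0286 is the smallest that 4 against 3 libraries allow, and it was not adjusted. The same count over all gene names was not made, so the difference is not read as a result about the segments. CirculatingExTRM replicate 1 has no Trbv value, so those shares have no value with 8 libraries.

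Low depth in CirculatingExTcirc limits every zero there, at a rough estimate of 8.60% and 4.01% of the depth of the deepest library. J segments are short, so few reads make a large FPKM. Near-identical copies share reads.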

Other observations

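CirculatingExTRM replicate 1, left out above, listed 917 gene names and 5 segments above 0: Trbj2-7 at 11112.5 FPKM, Trav5d-2 at 3199.8, Trav5n-2 at 1628.4, Trav13n-4 at 738.2 and Trbj1-6 at 116.2. Trac, Trbc1, Trbc2, Traj21 and Trbv13-2 were listed at 0 there. In the other 7 libraries Trav5d-2 and Trav5n-2 reached at most 1.31 FPKM each, and Trbj2-7 at most 81.7.

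Single segments held large values in single CirculatingExTcirc libraries. In replicate 1, Traj17 was at 418 FPKM, Traj4 at 222, Traj20 at 188 and Traj23 at 166, and all 4 were listed at 0 in replicate 2. In replicate 2, Traj22 was at 88.3 FPKM and was listed at 0 in replicate 1. Traj14, a J pseudogene, was high in both, at 119 and 172 FPKM, against 22.6 to 48.6 in tissue and 31.2 in CirculatingExTRM. These segments were picked after their values were seen, and no test is given.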
